A study of Mus musculus with 3 samples.

Results

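The chemokines and chemokine receptors analysed here were all genes whose symbol is Ccl, Cxcl, Ccr or Cxcr followed by digits and an optional lower-case letter, each read from its transcript with the largest total count. Of the 29917 named genes in the tables, 49 met this rule. They were 20 CC ligands, 13 CXC ligands, 10 CC receptors and 6 CXC receptors. Another 3 annotated symbols of the same form, Ccl21b, Ccl27b and Ccl28, were not analysed here.

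The series measured polyadenylated RNA of isolated mouse brain vessels in order to compare animals lacking connexin 30, a gap junction protein of astrocytes encoded by Gjb6, with wild types. It holds 3 libraries, each made from the vessels of 3 pooled male mice aged 3 months. The groups are Cx30-/-, in which the gene is deleted in every tissue, C57BL6 WT, an inbred strain, and C57BL6-BALB/c WT, a mixed background with the intact gene. The labels place the Cx30-/- mice on C57BL6, whereas the study's methods give them the mixed background, so each WT library was kept as a separate control. With 1 library in a group there was no replicate check of any difference, and the mice, the preparation and the genotype cannot be told apart. All intervals below are 95% intervals that cover read sampling only.

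Chemokines are small secreted proteins that guide the migration of leukocytes and of progenitor cells. They act on membrane-spanning receptors that couple to Gi proteins, and most inflammatory ligands share receptors with several others. In the brain vasculature, Cxcl12 is made by endothelial and mural cells and holds leukocytes at the vessel wall through its receptor Cxcr4, whereas Cxcl10, Ccl2 and Ccl5 are induced in inflammation and draw T cells and monocytes across the barrier. Ccr2 is the receptor by which classical monocytes follow Ccl2, and Cxcr2 is the receptor by which neutrophils follow ligands such as Cxcl1.

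Sequences are shown early for Cxcl12, for 3 ligands with the same low library and, further on, for members that share most of their sequence with other genes. The promoters below are the 250 bases upstream of the annotated start of Cxcl12, the most abundant member, and of Cxcl10, Ccl9 and Ccl6, the ligands with at least 50 normalized counts in a library that were at least 2-fold lower in the C57BL6-BALB/c WT library than in the other libraries. They come from RefSeq on GRCm38.p6 and are written 5′ to 3′ on the strand of the gene. Capitals mark matches to 4 motifs, searched on both strands. These were the TATA box TATAAA, the GC box GGGCGG bound by Sp1, the interferon-stimulated response element, which is GAAA repeated after 2 other bases, and the NF-kB consensus. The Cxcl12 promoter is at chr6:117168285-117168534 (plus strand), that of Cxcl10 at chr5:92348890-92349139 (minus strand), that of Ccl9 at chr11:83578637-83578886 (minus strand) and that of Ccl6 at chr11:83593088-83593337 (minus strand).
Cxcl12: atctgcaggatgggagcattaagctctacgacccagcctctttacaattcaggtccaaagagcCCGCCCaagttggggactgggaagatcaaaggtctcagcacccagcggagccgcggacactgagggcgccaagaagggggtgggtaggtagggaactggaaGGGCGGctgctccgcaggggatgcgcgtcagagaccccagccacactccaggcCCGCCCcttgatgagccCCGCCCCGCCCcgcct
Cxcl10: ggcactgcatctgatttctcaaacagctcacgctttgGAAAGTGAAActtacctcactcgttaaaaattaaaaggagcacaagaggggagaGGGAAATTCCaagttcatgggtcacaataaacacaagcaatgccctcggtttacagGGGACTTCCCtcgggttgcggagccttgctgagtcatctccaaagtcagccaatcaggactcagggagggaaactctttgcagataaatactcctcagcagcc
Ccl9: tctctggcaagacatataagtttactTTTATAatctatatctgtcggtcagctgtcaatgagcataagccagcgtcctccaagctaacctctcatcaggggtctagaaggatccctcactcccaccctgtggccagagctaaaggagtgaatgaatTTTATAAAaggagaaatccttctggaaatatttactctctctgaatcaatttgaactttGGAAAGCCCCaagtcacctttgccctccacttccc
Ccl6: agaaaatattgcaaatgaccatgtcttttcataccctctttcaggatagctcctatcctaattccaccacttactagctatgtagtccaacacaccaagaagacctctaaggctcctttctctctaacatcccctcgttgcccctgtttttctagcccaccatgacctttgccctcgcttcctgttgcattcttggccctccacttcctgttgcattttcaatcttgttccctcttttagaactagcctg

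The Cxcl12 promoter held 5 GC boxes and 14 CpG dinucleotides, against a median of 6 CpG over 32851 mouse promoters of the same length. The Cxcl10 promoter held 1 interferon element and 2 NF-kB matches, and that of Ccl9 held 1 NF-kB match and 3 TATA matches, of which 2 overlap. The Ccl6 promoter, although its gene is the neighbour of Ccl9, held none of these motifs. A promoter was found for 34 of the 49 members. An NF-kB match was present in 8 of them, namely Ccl20, Ccl9, Ccr3, Ccr6, Cxcl1, Cxcl10, Cxcl2 and Cxcl3, and the motif occurs in 3.9% of all promoters. The interferon element was present in 3 members, Ccl19, Cxcl10 and Cxcl14, and in 2.98% of all promoters. A TATA box was found in 9 members and in 12.4% of promoters, and a GC box in 5 members and in 32.7% of promoters. Further searches found a shorter NF-kB core, GGGANTTCC, which can overlap the consensus, in 3 members and 1.43% of promoters, the PU.1 sequence GAGGAAGT in 1 member and 2.44%, and the CCAAT box CCAAT in 9 members and 33.8%. A member was counted if any of its promoters matched, whereas the percentages are over single promoters, so the figures are not like measures. These matches describe the letters of the windows and are not evidence of binding.

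Before the results, the identity of the libraries was checked. The deposited counts, in which reads on common exons enter every transcript that has them, summed to between 50375426 and 60725557 per library. Gjb6 had 2899 counts in C57BL6 WT, 2246 in C57BL6-BALB/c WT and 96 in Cx30-/-. All 8 endothelial and all 8 mural cell markers were above the minimum of 50 normalized counts, a normalized count being the count divided by the median-of-ratios size factor of its library. Summed endothelial markers were 96716.8 in C57BL6 WT, 56824.4 in C57BL6-BALB/c WT and 109718 in Cx30-/-, while summed mural markers ran from 77340.4 to 94336. Markers of the other cells also varied, from 18870.3 to 31809.7 for neurons, from 36849 to 46151.4 for oligodendrocytes, from 13849.6 to 16541.1 for astrocytes, from 10543.1 to 15044.4 for fibroblasts and from 56115.8 to 144670 for choroid plexus. In such bulk tissue, fewer cells of a type and less RNA per cell cannot be told apart.

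Most chemokine genes had few or no reads in the vessels. At least 50 normalized counts in a library were reached by 15 of the 49 members (30.6%), against 50.1% of all genes. A further 19 had 10 or more counts in at least 1 library, 9 had between 1 and 9 counts in their highest library, and 6 had no count in any library. The 15 were 6 CC ligands (Ccl6, Ccl9, Ccl17, Ccl24, Ccl25 and Ccl27a), 4 CXC ligands (Cxcl10, Cxcl12, Cxcl14 and Cxcl16), 3 CC receptors (Ccr2 and Ccr10 among them) and 2 CXC receptors (Cxcr2 and Cxcr4). Just above the minimum were Ccl24, whose highest library had 50.8 normalized counts, Cxcr2 with 56.6 and Ccr10 with 70.3, and just below it were Ccr9 and Cxcr5 with 46.2 each and Cxcl1 with 42.0.

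**Figure D1:**
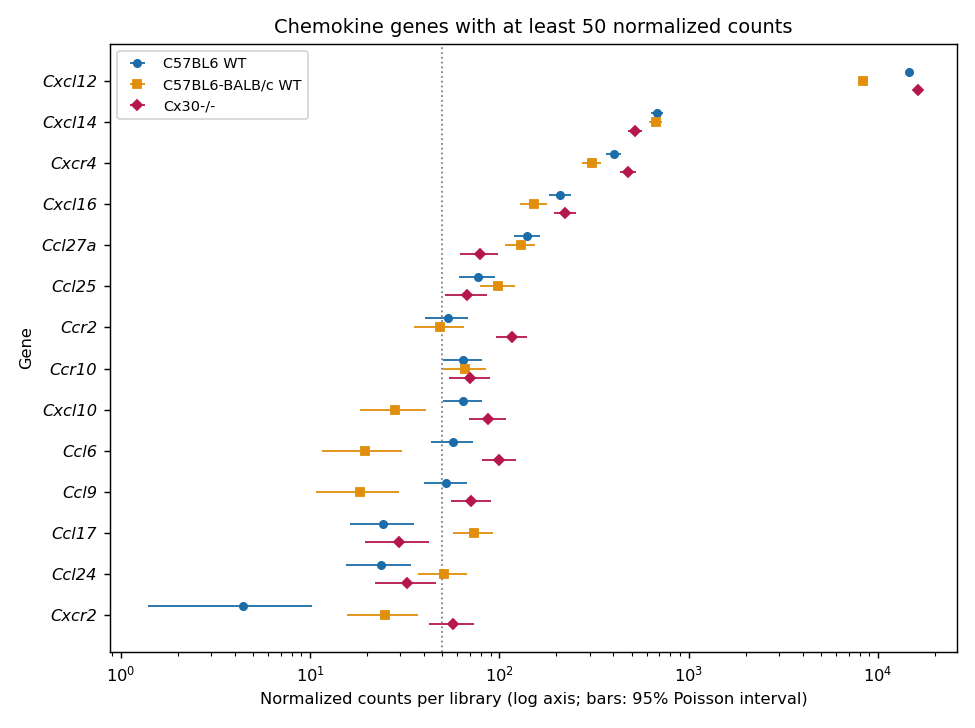
Normalized counts of 14 of the 15 members above the minimum in each library, on a log axis, with 95% Poisson intervals of read sampling. The dotted line is the minimum of 50. Cxcl12 lies above all the others in every library, Cxcr2 runs from 4.4 to 56.6, and Cxcl10, Ccl6 and Ccl9 are lowest in C57BL6-BALB/c WT.

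Cxcl12, which retains leukocytes and guides precursors, made up most of the reads of the 49 members. The gene (ENSMUSG00000061353; chromosome 6 of GRCm38, 117168535 to 117181367, plus strand) received 16666 counts in C57BL6 WT, 7754 in C57BL6-BALB/c WT and 15464 in Cx30-/-, or 14552.8, 8375.3 and 16222.5 normalized counts. It held 86.1%, 79.2% and 86.8% of the normalized counts of all 49 members in these libraries. Per kilobase of transcript, its 2586.2 normalized counts placed it at rank 277 of all genes in C57BL6 WT, whereas its 1488.4 placed it at rank 718 in C57BL6-BALB/c WT and its 2883.0 placed it at rank 229 in Cx30-/-. The Cx30-/- and C57BL6 WT libraries were thus close, and the C57BL6-BALB/c WT library was the low one. The log2 ratio of Cx30-/- to C57BL6 WT was 0.16 (0.13 to 0.19), that of Cx30-/- to C57BL6-BALB/c WT was 0.95 (0.91 to 0.99), and the WT libraries themselves differed by a log2 ratio of -0.80 (-0.84 to -0.76, C57BL6-BALB/c over C57BL6).

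The endothelial markers had the same order of libraries. Their median log2 ratio was 0.16 for Cx30-/- against C57BL6 WT, 0.85 against C57BL6-BALB/c WT and -0.67 between the WT libraries, and all 8 were higher in Cx30-/- than in either control. Pecam1, an adhesion molecule of endothelial junctions, had 12730.4, 7873.0 and 14040.5 normalized counts in C57BL6 WT, C57BL6-BALB/c WT and Cx30-/-. The mural markers had medians of 0.22, 0.07 and 0.10 in the same comparisons. The part of these markers in the Cxcl12 values was not tested.

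The other CXC ligands above the minimum were far less abundant. Cxcl14, a ligand made by epithelia and some neurons, was counted at 679.4 in C57BL6 WT, 670.8 in C57BL6-BALB/c WT and 521.4 in Cx30-/- (normalized counts). The WT libraries were alike, and Cx30-/- was lower by log2 ratios of -0.38 (-0.55 to -0.22) and -0.36 (-0.54 to -0.19). Neuronal markers were also lower in Cx30-/- by their medians, -0.38 and -0.76, with 1 of 5 higher in each comparison. The part of these markers in the Cxcl14 values was not tested. Cxcl16, a membrane-bound ligand and scavenger receptor, had 209.6, 152.3 and 223.4 normalized counts in those libraries. Its C57BL6-BALB/c WT library was the lowest, at a log2 ratio of -0.46 (-0.77 to -0.15) to C57BL6 WT, and Cx30-/- differed from C57BL6 WT by 0.09 (-0.18 to 0.36). Exons of Zmynd15 on the opposite strand cover 20.5% of the Cxcl16 transcript, and the library kit does not mark strand.

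Cxcl10, an interferon-induced attractant of T cells, differed most between the WT libraries among the CXC ligands above the minimum. It had 74 counts in C57BL6 WT, 26 in C57BL6-BALB/c WT and 83 in Cx30-/-, or 64.6, 28.1 and 87.1 normalized counts. Cx30-/- lay 3.10-fold above C57BL6-BALB/c WT, a log2 ratio of 1.63 (0.98 to 2.33), but its log2 ratio to C57BL6 WT was 0.43 (-0.04 to 0.90). The C57BL6-BALB/c WT library was lower than C57BL6 WT by a log2 ratio of -1.20 (-1.91 to -0.54). Exons of Art3 on the opposite strand cover 12.2% of its transcript. The other interferon-induced members did not have this order. Cxcl9 had 26, 11 and 5 counts in C57BL6 WT, C57BL6-BALB/c WT and Cx30-/-, which put Cx30-/- below C57BL6 WT by a log2 ratio of -2.11 (-3.85 to -0.71). Cxcl11 had 21, 20 and 28 counts. Exons of Gm2673 on the opposite strand cover 41.7% of the Cxcl11 transcript, and its row is annotated as a polymorphic pseudogene. Of this group of 3, summing to 105.7, 61.6 and 121.7 normalized counts, only Cxcl10 passed the minimum.

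Of the chemokines that carry the ELR motif and attract neutrophils, the 5 within the naming rule were scarce. Cxcl1 had 39, 28 and 40 counts in C57BL6 WT, C57BL6-BALB/c WT and Cx30-/-, with no library apart from the others. Cxcl5 had 14, 5 and 3 counts. Cxcl2 and Cxcl3 had at most 2 counts in a library, and Cxcl15 had 0, where a count of 0 allows up to 3 counts. None of these 5 genes passed the minimum. Ppbp, an ELR chemokine outside the naming rule, did pass it and is given further below. Among the remaining CXC ligands, Cxcl13, which attracts B cells, had 2, 4 and 3 counts and Cxcl17 had 0, 3 and 1.

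**Figure D2:**
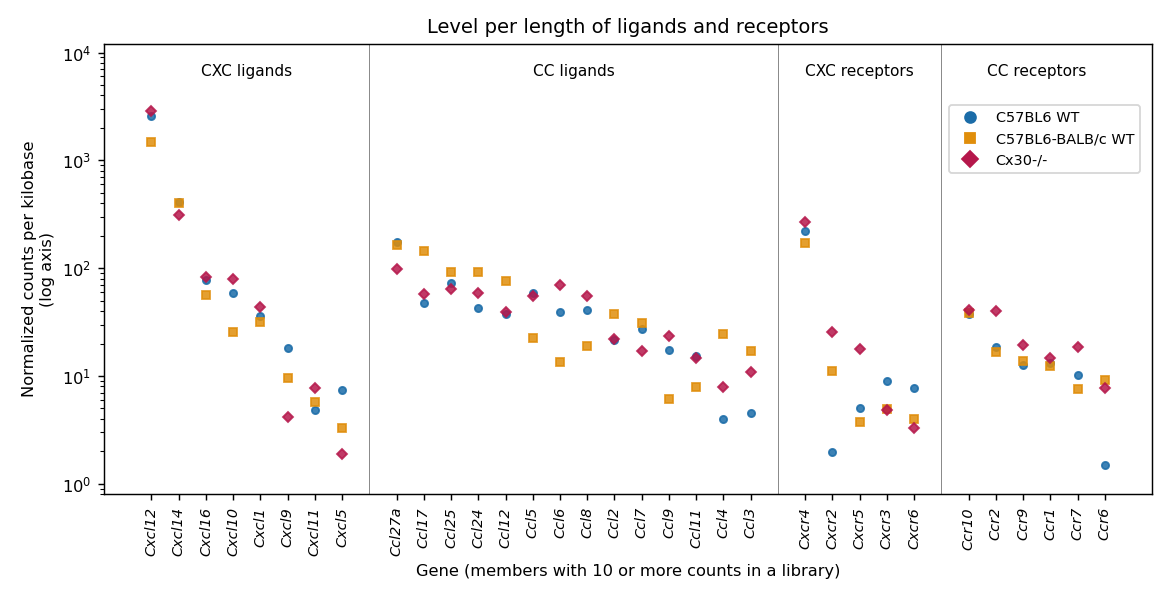
Normalized counts per kilobase of transcript, on a log axis, for members reported here with 10 or more counts in a library, by class, with 1 symbol per library. Cxcl12 stands near 2586.2 in C57BL6 WT and Cxcr4, at 222.5, is the highest of the Ccr and Cxcr genes plotted.

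Of the CC ligands above the minimum, Ccl6 and Ccl9 gave the widest spread among the 3 libraries. Both are macrophage and myeloid chemokines that act on Ccr1, and they lie side by side on chromosome 11. Ccl6 (ENSMUSG00000018927; 83587882 to 83593087) had 65 counts in C57BL6 WT, 18 in C57BL6-BALB/c WT and 95 in Cx30-/-, or 56.8, 19.4 and 99.7 normalized counts. Ccl9 (ENSMUSG00000019122; 83572919 to 83578636) had 60, 17 and 68 counts, or 52.4, 18.4 and 71.3 normalized counts. For both, the C57BL6-BALB/c WT library was the low one. Cx30-/- exceeded it 5.13-fold for Ccl6, a log2 ratio of 2.36 (1.62 to 3.17), and 3.88-fold for Ccl9, a log2 ratio of 1.96 (1.17 to 2.82). Against C57BL6 WT, the Cx30-/- log2 ratio was 0.81 (0.34 to 1.29) for Ccl6 and 0.45 (-0.08 to 0.97) for Ccl9, both under 2-fold. The WT libraries differed by -1.55 (-2.39 to -0.77) and -1.51 (-2.38 to -0.72).

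The same stretch of chromosome 11, from 83525778 to 83664683 of GRCm38, holds Ccl5, Ccl3 and Ccl4, attractants of T cells and monocytes that did not all follow this order. Ccl5 had 36, 11 and 28 counts in C57BL6 WT, C57BL6-BALB/c WT and Cx30-/-, again lowest in C57BL6-BALB/c WT (log2 ratio to C57BL6 WT -1.40, -2.53 to -0.40). Ccl3 had 4, 12 and 8 counts and Ccl4 had 3, 15 and 5, so that these were highest in C57BL6-BALB/c WT. The log2 ratio of that library to C57BL6 WT was 1.89 (0.17 to 3.98) for Ccl3 and 2.63 (0.81 to 5.06) for Ccl4. Of these 5 macrophage inflammatory genes, 2 passed the minimum. Microglia and macrophage markers, with medians of -0.12 for Cx30-/- against C57BL6 WT, 0.36 against C57BL6-BALB/c WT and -0.38 between WT libraries, were higher in Cx30-/- than in C57BL6-BALB/c WT for 8 of 9 genes. Their summed normalized counts were 6323.7, 4580.8 and 5908.3, and their part in the Ccl6 and Ccl9 values was not tested.

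Ccl17, which attracts T helper cells through Ccr4, had the opposite order, with 28 counts in C57BL6 WT, 68 in C57BL6-BALB/c WT and 28 in Cx30-/- (24.4, 73.4 and 29.4 normalized counts). The C57BL6-BALB/c WT library stood apart from the others. It was 3.00-fold above C57BL6 WT, a log2 ratio of 1.59 (0.93 to 2.28), and Cx30-/- was below it by a log2 ratio of -1.32 (-2.01 to -0.67). Cx30-/- and C57BL6 WT differed by 0.26 (-0.54 to 1.07). Ccl24, an attractant of eosinophils, had 27, 47 and 31 counts and was likewise highest in C57BL6-BALB/c WT, 2.15-fold above C57BL6 WT (log2 ratio 1.11, 0.39 to 1.85). Its Cx30-/- library differed from C57BL6-BALB/c WT by -0.64 (-1.35 to 0.04).

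Among the homeostatic chemokines, which are made without inflammation, Ccl25 guides thymocytes and gut T cells. It had 76.8, 98.3 and 67.1 normalized counts in C57BL6 WT, C57BL6-BALB/c WT and Cx30-/-, and its Cx30-/- log2 ratios were -0.19 (-0.68 to 0.29) and -0.55 (-1.03 to -0.07). Ccl27a, a ligand of Ccr10 best known from skin, had 160, 120 and 75 counts, or 139.7, 129.6 and 78.7 normalized counts. The WT libraries were close and Cx30-/- was the low one, at log2 ratios of -0.83 (-1.24 to -0.42) and -0.72 (-1.16 to -0.29), both under 2-fold. With all rows of the gene summed, the log2 ratio against C57BL6 WT was -1.02, past 2-fold. The row used for Ccl27a is a retained intron transcript of which at most 28.1% of the bases had a read. Its coding row had 80, 61 and 29 counts, which after scaling put Cx30-/- more than 2-fold below both WT libraries. Of the 11 genes listed as homeostatic, 7 had a row and 4 passed the minimum (Cxcl12, Cxcl14, Ccl25 and Ccl27a), with a median log2 ratio of -0.29 against C57BL6 WT and -0.46 against C57BL6-BALB/c WT, while their summed normalized counts of 15450.4, 9278.3 and 16892.9 followed Cxcl12.

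Ccl19 and Ccl21a, the homeostatic ligands that draw T cells and dendritic cells into lymph nodes through Ccr7, had 0 counts in all 3 libraries. Both have near-identical copies in the mouse genome, and the authors removed reads that matched more than once. In the Ccl19 transcript, 68.2% of the 50-base windows, the read length, also occur unchanged in a transcript of another gene, and 86.9% do so when up to 2 mismatches are allowed. For Ccl21a these shares were 71.6% and 100%. For Ccl27a they were 61.4% and 87.6%, so that its counts rest on a small part of the transcript. Apart from genes overlapping the member in the genome, the highest share among the other members was 6.3%, for Cxcl3. Windows shared with an overlapping gene made up 40.9% for Cxcl11 (Gm2673), 19% for Cxcl16 (Zmynd15) and 8% for Cxcl10 (Art3). With up to 2 mismatches allowed, 91 of 696 Ccl19 windows and 0 of 821 Ccl21a windows had no such copy. Those of Ccl19 had no read either. Reads from windows shared with such a copy were not counted, so the 0 counts do not give the level of Ccl19 or Ccl21a. A stretch of 60 bases of each transcript illustrates this. Bases 216 to 275 of the Ccl19 transcript also occur in Ccl19-ps1 and Gm2564, and bases 76 to 135 of the Ccl21a transcript in Ccl21b, Gm10591, Gm13304 and Gm21541, with nothing capitalised because every base is shared.
Ccl19: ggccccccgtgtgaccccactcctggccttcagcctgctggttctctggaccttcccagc
Ccl21a: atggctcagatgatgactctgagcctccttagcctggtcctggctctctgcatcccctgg

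**Figure D3:**
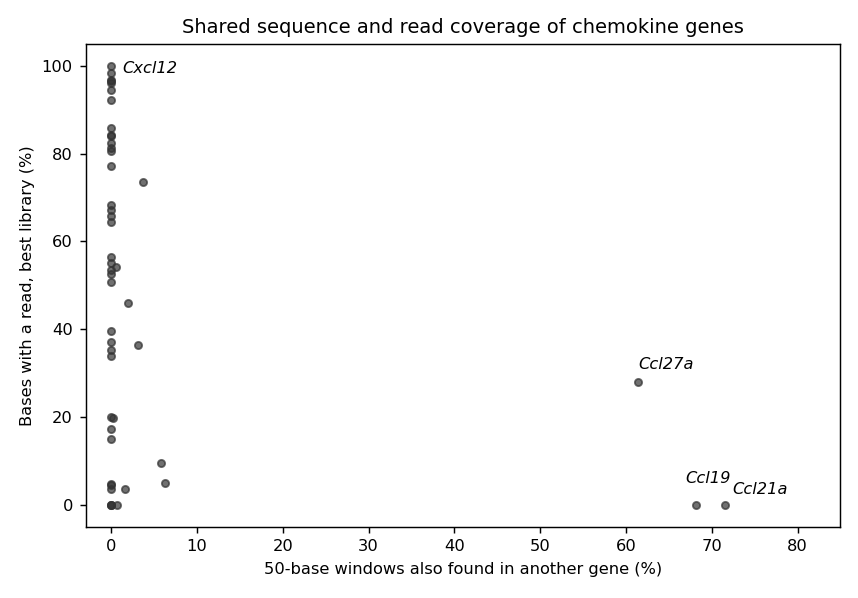
Share of 50-base windows of the transcript of each member reported here that also occur in another gene (x axis, %) against the share of its bases with a read in the library with most coverage (y axis, %), 1 point per gene. Windows shared only with a gene that overlaps the member were left out of the x axis. Ccl19 and Ccl21a, at 68.2% and 71.6% shared windows, have no covered base. The members other than these and Ccl27a lie at 6.3% or less.

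The monocyte chemoattractants lie together on chromosome 11 from 82035571 to 82305690 and none reached the minimum. Ccl2, the principal ligand of Ccr2, had 27 counts in C57BL6 WT, 38 in C57BL6-BALB/c WT and 23 in Cx30-/-, and Ccl12, another ligand of that receptor, had 23, 38 and 20. Both were highest in C57BL6-BALB/c WT, and Cx30-/- differed from C57BL6 WT by 0.03 (-0.84 to 0.89) and 0.06 (-0.88 to 0.99). The row used for Ccl2 is a retained intron transcript, and its coding row had 24, 37 and 22 counts. Ccl7 had 25, 23 and 13 counts, Ccl8 had 24, 9 and 27, and the eosinophil attractant Ccl11 had 19, 8 and 15. Summed over these 5 genes there were 103.0, 125.3 and 102.8 normalized counts. Ccl1, in the same cluster, and Ccl26 had 0 counts in every library, Ccl20 had at most 1 and Ccl22 at most 9.

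Cxcr4 was the most abundant of the Ccr and Cxcr genes, also per kilobase, at 222.5, 170.5 and 265.6 normalized counts per kilobase in C57BL6 WT, C57BL6-BALB/c WT and Cx30-/-. It is the signalling receptor of Cxcl12 and lies on chromosome 1 from 128588199 to 128592293 (ENSMUSG00000045382). Its counts were 460, 285 and 457, so that C57BL6-BALB/c WT was the lowest library as for its ligand. Set against C57BL6 WT, the Cx30-/- log2 ratio was 0.26 (0.07 to 0.45), and set against C57BL6-BALB/c WT it was 0.64 (0.42 to 0.86), both under 2-fold. Ackr3, the atypical receptor that takes up Cxcl12, had 2226.7, 1929.1 and 2832.4 normalized counts, with Cx30-/- log2 ratios of 0.35 (0.27 to 0.43) and 0.55 (0.47 to 0.64).

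Cxcr2, the receptor by which neutrophils follow ELR chemokines, had the widest range of all members above the minimum. The gene (ENSMUSG00000026180; chromosome 1, 74153989 to 74161246) had 5 counts in C57BL6 WT, 23 in C57BL6-BALB/c WT and 54 in Cx30-/-, or 4.4, 24.8 and 56.6 normalized counts. Reads covered 10.8%, 43.4% and 67.3% of its transcript. Cx30-/- was the highest library, 13-fold above C57BL6 WT (log2 ratio 3.70, 2.39 to 5.38) and 2.28-fold above C57BL6-BALB/c WT (log2 ratio 1.19, 0.46 to 1.96). The WT libraries differed from each other by a log2 ratio of 2.51 (1.08 to 4.26). Its neighbour Cxcr1 had 1, 0 and 0 counts.

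Neutrophil markers were higher in the same library. Of 8 listed, 7 passed the minimum, and 6 of these (S100a8, S100a9, Mmp8, Retnlg, Ngp and Camp) were at least 2-fold higher in Cx30-/- than in either WT library. Their median log2 ratio was 1.60 against C57BL6 WT and 2.13 against C57BL6-BALB/c WT, and the sum over the 8 was 550.1, 520.6 and 1632.3 normalized counts in C57BL6 WT, C57BL6-BALB/c WT and Cx30-/-. S100a8, a calcium-binding protein that fills neutrophil cytosol, had 139, 56 and 344 counts. The defining surface marker Ly6g was at or near 0, with 0.0, 1.1 and 2.1 normalized counts. Between the WT libraries, 4 of the markers passed the minimum, with a median of -0.67 (C57BL6-BALB/c over C57BL6). Of these, Ltf was at least 2-fold higher and S100a8 at least 2-fold lower in C57BL6-BALB/c WT. Erythroid markers were also highest in Cx30-/- (7715.6, 4358.3 and 18496.9). The part of these markers in the Cxcr2 values was not tested.

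Ccr2, the receptor that recruits classical monocytes, was the other member at least 2-fold higher in Cx30-/- than in both controls. It lies on chromosome 9 from 124101950 to 124113557 (ENSMUSG00000049103), within a cluster of 6 receptor genes. Its counts were 61 in C57BL6 WT, 45 in C57BL6-BALB/c WT and 111 in Cx30-/-, or 53.3, 48.6 and 116.4 normalized counts. The WT libraries were alike, at a log2 ratio of -0.13 (-0.72 to 0.45), and Cx30-/- was 2.19-fold and 2.40-fold above them (log2 ratios 1.13, 0.66 to 1.60, and 1.26, 0.75 to 1.79). Of its 50-base windows, 3.7% also occur in another gene.

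A list of monocyte markers, drawn up after the Ccr2 values were seen, had 3 of 6 genes above the minimum. Their median log2 ratio was 0.36 against C57BL6 WT and 1.22 against C57BL6-BALB/c WT, and none was at least 2-fold higher than C57BL6 WT, while 2 of the 3, Plac8 and F13a1, were so against C57BL6-BALB/c WT. F13a1, a coagulation factor subunit of monocytes and macrophages, had 475.0, 320.8 and 748.0 normalized counts in C57BL6 WT, C57BL6-BALB/c WT and Cx30-/-. Ly6c2, which defines classical monocytes, was at 0.9, 1.1 and 3.1, and the list's sums of 4682.1, 3277.1 and 5863.1 came mainly from Ace. Their part in the Ccr2 values was not tested.

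The remaining receptors were either under 2-fold in every comparison or under the minimum of 50 normalized counts. Ccr10, the receptor of Ccl27a, had 64.6, 65.9 and 70.3 normalized counts and hardly varied, with log2 ratios of 0.12 (-0.38 to 0.62) and 0.09 (-0.43 to 0.62) for Cx30-/-. Cxcr5, which guides B cells into follicles, stayed under the minimum with 15 counts in C57BL6 WT, 9 in C57BL6-BALB/c WT and 44 in Cx30-/-. Its log2 ratios were nevertheless 1.82 (0.94 to 2.77) and 2.25 (1.19 to 3.47), both larger than those of Ccr2. B cell markers were also low, none of the 4 with a row reaching 50 normalized counts. They summed to 51.5 normalized counts in C57BL6 WT, 42.1 in C57BL6-BALB/c WT and 92.3 in Cx30-/-. The log2 ratios of the Cx30-/- sum were 0.84 and 1.13. Cd79a, a subunit of the B cell receptor, was not highest in Cx30-/-, with 12.6 normalized counts against 17.5 in C57BL6 WT, whereas Cd79b, the other subunit, had 43.0 against 21.8. Their part in the Cxcr5 values was not tested. Exons of Bcl9l on the opposite strand cover 4.2% of the Cxcr5 transcript.

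Ccr7, the receptor of Ccl19 and Ccl21a on T cells and dendritic cells, had 23, 14 and 35 counts in C57BL6 WT, C57BL6-BALB/c WT and Cx30-/-, highest in Cx30-/- with log2 ratios of 0.87 (0.07 to 1.70) and 1.28 (0.35 to 2.29). Ccr6, the receptor of Ccl20, had 3, 15 and 13 counts, so that C57BL6 WT was the low library. Ccr9, the receptor of Ccl25, had 34, 30 and 44 counts and Ccr1, the receptor of Ccl6 and Ccl9, had 41, 31 and 38, and in neither was a library apart. The T cell receptors Cxcr3, which binds Cxcl10, and Cxcr6, which binds Cxcl16, were highest in C57BL6 WT, with 18, 8 and 8 counts and 17, 7 and 6 counts. Summed T cell markers were 282.0, 213.9 and 248.6 normalized counts, with 2 of 7 genes above the minimum. Dendritic cell markers summed to 1859.0, 1854.6 and 1967.0, and 2 of the 3 with a row passed the minimum. NK cell markers were low (34.1, 11.9 and 42.0), and 0 of the 2 with a row passed it. Ccr3 and Ccr4 had at most 3 counts and Ccr8 had 0.

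The classes as a whole can be set side by side. CC ligands summed to 523.0 normalized counts in C57BL6 WT, 561.7 in C57BL6-BALB/c WT and 528.7 in Cx30-/-, a narrow range. CC receptors summed to 324.0, 343.5 and 423.8 and CXC receptors to 450.6, 358.6 and 596.9, both highest in Cx30-/-. CXC ligands summed to 15595.4, 9306.4 and 17139.4, and these sums were mostly Cxcl12.

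**Figure D4:**
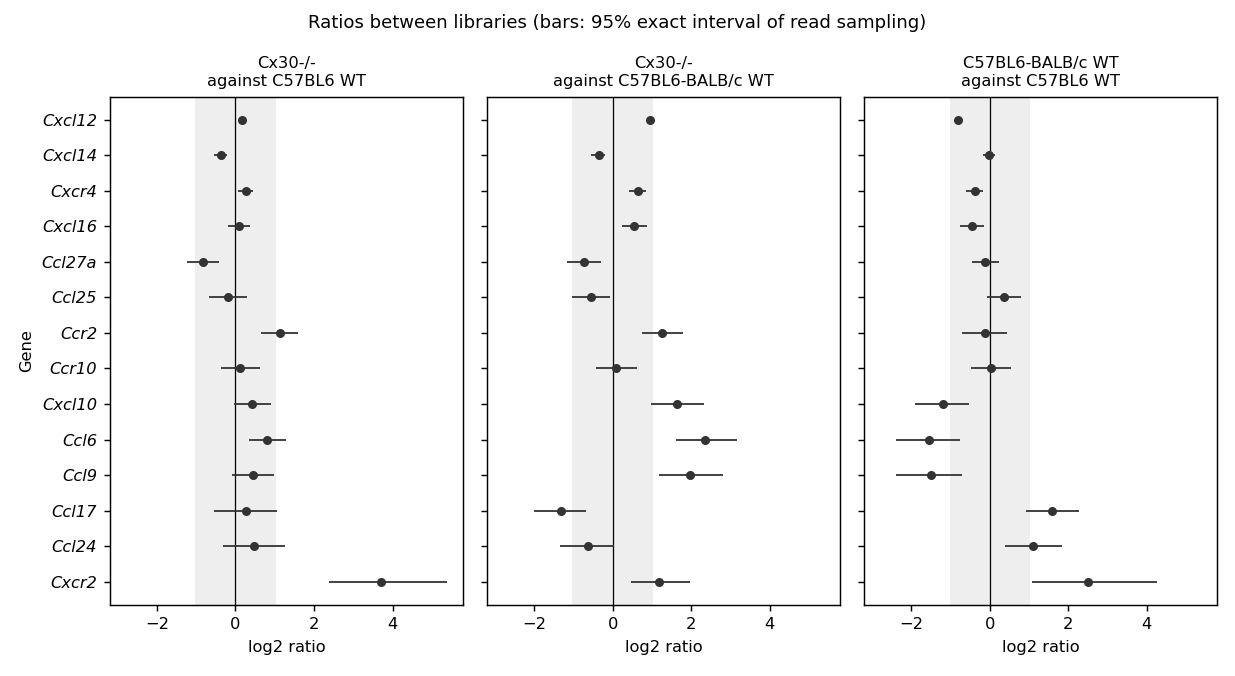
Log2 ratios of 14 of the 15 members above the minimum in the 3 comparisons of libraries, with 95% exact intervals of read sampling; the grey band is less than 2-fold. Against C57BL6 WT only Cxcr2 (3.70) and Ccr2 (1.13) leave the band, whereas Ccl6, Ccl9 and Cxcl10 are to the right against C57BL6-BALB/c WT and to the left in the comparison of the WT libraries.

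Counted over the members, Cx30-/- and C57BL6 WT differed at least 2-fold for 2 of 13 members above the minimum, both higher (Cxcr2 and Ccr2), against 2.67% of all 14776 genes tested in either direction, 1.42% being higher and 1.25% lower. Against C57BL6-BALB/c WT, 5 of 15 were higher (Ccl6, Ccl9, Cxcr2, Cxcl10 and Ccr2) and 1 was lower (Ccl17), against 8.69% of 14891 genes, of which 3.96% higher and 4.73% lower. Between the WT libraries, 2 of 14 were higher in C57BL6-BALB/c WT (Ccl17 and Ccl24) and 3 lower (Ccl6, Ccl9 and Cxcl10), against 3.43% of 14791 genes, of which 1.41% higher and 2.02% lower. The comparisons share libraries, so a library that is low for a gene enters more than 1 of them. At least 2-fold outside both WT libraries in the same direction were Cxcr2 and Ccr2, 2 of 13, against 1.42% of 14688 genes, or 0.742% for higher and 0.674% for lower. Except for Ccr2 against C57BL6 WT, each member named here reached 50 normalized counts only in the higher library of the pair. With that minimum required in every library compared, 1 member was left against C57BL6 WT and 0 against C57BL6-BALB/c WT. There were also 0 between the WT libraries and 0 outside both. The shares of all genes given here use the minimum in the higher library. The median log2 ratio over the members was 0.16 against C57BL6 WT, 0.55 against C57BL6-BALB/c WT and -0.12 between WT libraries, where the median of all genes was 0.00 in each.

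A test across genes was possible only with both WT libraries as 1 genotype group, whose difference then serves as the error. In edgeR's quasi-likelihood test with Benjamini-Hochberg adjustment, 0 of 34 members tested had an adjusted p under 0.05, against 0.0512% of 17576 genes. At an unadjusted p under 0.05 there were 4 members (Ccl6, Ccr2, Cxcr2 and Cxcr5), against 8.69% of genes. The lowest adjusted p was 0.292, for Cxcr5 (log2 ratio 2.0), followed by 0.348 for Cxcr2 (2.0), 0.391 for Ccr2 (1.19) and 0.429 for Ccl6 (1.37). Cxcl12 had an adjusted p of 0.865, and Ccl27a had 0.667. DESeq2 called 0 of the 11 members to which it gave an adjusted p, and Cxcr2 and Cxcr5 were not among those 11. Over all members it had 0 at an unadjusted p under 0.05.

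**Figure D5:**
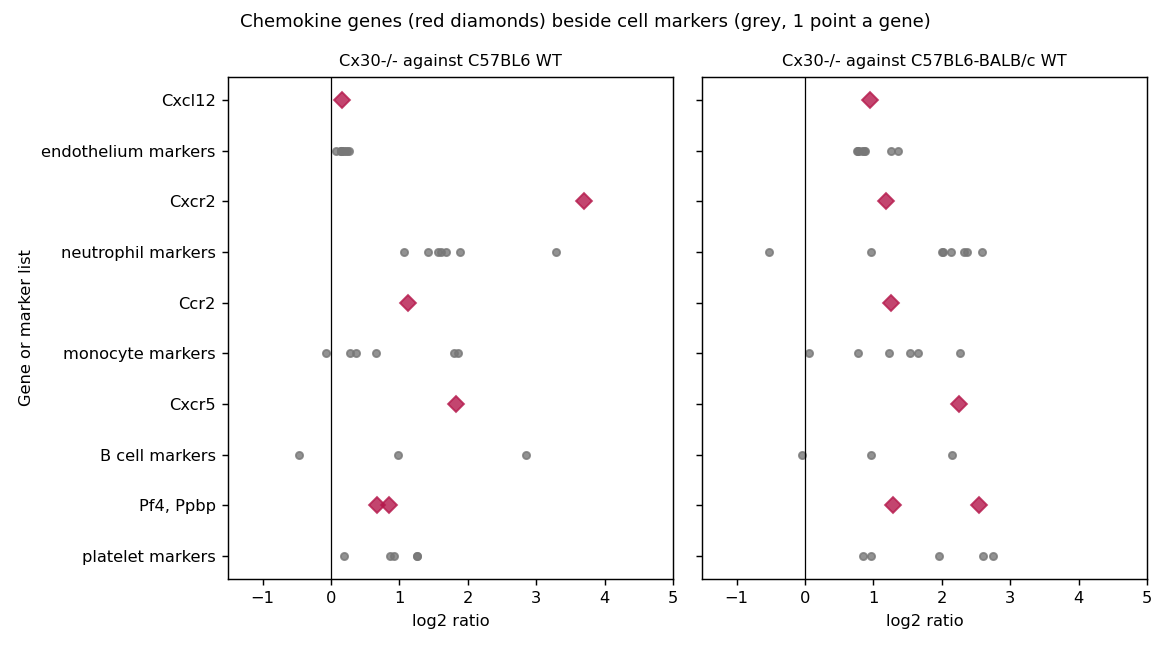
Log2 ratios of Cx30-/- to each WT library for chemokine genes (red diamonds) beside genes of a marker list (grey points, 1 per gene). Cxcl12, at 0.16 and 0.95, lies among the endothelial markers, whose medians are 0.16 and 0.85.

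Chemokine genes outside the naming rule were measured as well, and 9 of the 11 with a row passed the minimum. Cx3cl1, the membrane-tethered fractalkine of neurons and endothelium, was the most abundant with 13949.4 normalized counts in C57BL6 WT, 12319.9 in C57BL6-BALB/c WT and 8353.6 in Cx30-/-. It was lowest in Cx30-/-, at log2 ratios of -0.74 (-0.78 to -0.70) and -0.56 (-0.60 to -0.52). Summed neuronal markers were also lowest in Cx30-/-, although 1 of 5 was higher there in each comparison with a WT library. All 8 endothelial markers were higher in Cx30-/- than in either WT library. The part of these markers in the Cx3cl1 values was not tested. Its receptor Cx3cr1, on microglia, had 723.0, 505.5 and 489.9. The platelet chemokines Pf4 and Ppbp were the only genes of this list at least 2-fold apart, both between Cx30-/- and C57BL6-BALB/c WT. Ppbp was also at least 2-fold lower in C57BL6-BALB/c WT than in C57BL6 WT. Pf4 had 130.1, 85.3 and 206.7 normalized counts and Ppbp had 142.3, 44.3 and 257.0, with Cx30-/- the highest library for each. Platelet markers summed to 372.9, 321.9 and 669.3 and had medians of 0.89 and 1.78, and their part in the Pf4 and Ppbp values was not tested.

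The atypical receptors and relatives stayed within 2-fold. Ackr1, which carries chemokines across venular endothelium, was counted at 2116.6 in C57BL6 WT, 1648.3 in C57BL6-BALB/c WT and 1512.7 in Cx30-/- (normalized counts). Exons of Cadm3 on the same strand cover 9.8% of the Ackr1 transcript. Ackr2, a scavenger of CC ligands, had 27.1, 51.8 and 36.7, and Ackr4, a scavenger of homeostatic ligands, had 185.1, 168.5 and 236.0. Ccrl2, which presents chemerin on endothelium, had 434.9, 308.9 and 559.1, the C57BL6-BALB/c WT library again being the lowest. The list of 20 genes of chemokine receptor signalling with a row, all above the minimum, had medians of 0.06 and 0.13. None of them was 2-fold apart between Cx30-/- and C57BL6 WT. Against C57BL6-BALB/c WT, Rac2, a GTPase of blood cells (106.5, 50.8 and 157.4), and Pik3r5, a regulatory subunit of phosphoinositide 3-kinase gamma (180.8, 111.3 and 227.6), were at least 2-fold higher. Rac2 was also at least 2-fold lower in C57BL6-BALB/c WT than in C57BL6 WT. Of the 8 genes of inflammatory activation with a row, 5 passed the minimum and none was 2-fold apart between Cx30-/- and C57BL6 WT. Nfkbia, the inhibitor of NF-kB, had 4153.0, 2066.3 and 3803.9 normalized counts, with C57BL6-BALB/c WT the low library as for Cxcl10. Tnf stayed at or under 6.5 and Il1b had 32.3, 24.8 and 58.7, at least 2-fold higher in Cx30-/- than in C57BL6-BALB/c WT.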

How the data were processed

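RNA sequencing tables of 3 libraries were used as the authors deposited them. The submitters' processing notes name CASAVA 1.8.2 and Bowtie, and the study's methods add Eoulsan. Reads were trimmed, filtered and aligned to mm10, and reads matching more than once were removed. For each of 82813 transcripts the authors deposited a raw count of exonic alignments. They also deposited a column that gives this count as a fraction of the library's total, which was only checked against the counts. Positions in the tables run past the end of GRCm38, so coordinates were taken from GENCODE M21 by transcript identifier, which named 69375 transcripts.

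Normalization used median-of-ratios size factors (1.145, 0.926 and 0.953 for C57BL6 WT, C57BL6-BALB/c WT and Cx30-/-), without a pseudocount. Members with a ratio of at least 2 and 50 normalized counts in the higher library were counted. The study's methods set 50 reads and a fold change of 2, and applying the minimum to the higher library was a choice made here. Ratio intervals are exact conditional binomial intervals (scipy 1.17.1) and levels have Poisson intervals, which cover counting error only. Lengths are those in the tables. The test across genes used the quasi-likelihood test of edgeR 4.0.16 (R 4.3.3) after filterByExpr and TMM scaling, with DESeq2 1.42.0 as an alternative, and was tested on simulated counts. All members above the minimum, and those with 10 counts in a library or in a ligand and receptor pair with them, are named, except 1 member that is not reported here. The members and lists were chosen with earlier results of these data known, and the monocyte list was added after values were seen. Other normalizations, transcript rows, minimums, thresholds and a pseudocount of 1 were tried.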

Additional observations from a re-analysis of the deposited data

How the results depend on the processing

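With 1 library in each group no library could be left out of the edgeR test, which would keep no residual degrees of freedom. No paired analysis was possible because each group has 1 library. The counts of members at least 2-fold apart, which were 2 against C57BL6 WT, 6 against C57BL6-BALB/c WT, 5 between the WT libraries and 2 outside both, depended on the minimum and the fold. With the minimum required in every library compared they were 1, 0, 0 and 0. With a minimum of 10 they were 7, 12, 13 and 4, and with none 14, 17, 19 and 5. At 1.5-fold there were 4 against C57BL6 WT, 10 against C57BL6-BALB/c WT and 4 outside both, where Ccl6 (higher) and Ccl27a (lower) joined Cxcr2 and Ccr2. At 4-fold there were 1, 1, 0 and 0. Other normalizations, the sum of rows, the longest row and a pseudocount of 1 kept each of these counts within 1.5 times, and reversed no log2 ratio of a named member that was at least 2-fold. Cxcl12 passed 2-fold against C57BL6-BALB/c WT when scaled by total count (1.01), Ccl27a passed 2-fold against C57BL6 WT with the sum of rows (-1.02), and Ccr10 changed sign between the WT libraries (-0.03). No setting of the test across genes called a member, although without a filter on low counts 5 had an unadjusted p under 0.05 and the lowest adjusted p was 0.0692. Low counts limit the values of most members.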
